A study of Sus scrofa with 12 samples.

Results

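Deoxyshikonin-treated IPEC-J2 cells were compared between 24 h and 6 h of treatment. IPEC-J2 is an established epithelial cell line from pig jejunum, and deoxyshikonin is a plant naphthoquinone. The comparison used 6 of the 12 RNA-seq libraries of the series: 3 from cells given deoxyshikonin at 5 µmol/L for 6 h and 3 from cells given the same dose for 24 h. The other 6 libraries came from untreated cells of the same line, 3 at 6 h and 3 at 24 h, and served as the background of time in culture. Libraries were chosen by the group and replicate number in their titles, and genes by a mean of at least 1 TPM over the 6 treated libraries. TPM is the abundance of a transcript per unit of length, scaled to a fixed total per library, so it allows levels of different genes to be compared, but it carries no sequencing depth. The depth behind the values is therefore not known here, so they are printed without counting intervals. This filter left 11886 of 32518 gene identifiers, of which 9722 had a gene symbol.

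Quinones react with thiols and can pass electrons to oxygen. As background, cells answer oxidants and electrophiles through the transcription factor NRF2, which drives antioxidant enzymes and glutathione synthesis. Damaged proteins are answered through the heat shock factor HSF1, which drives cytosolic chaperones, and through the ubiquitin and proteasome system. Load on the endoplasmic reticulum or a shortage of amino acids acts through ATF4 and related factors of the integrated stress response. In an intestinal epithelium the tight junctions and keratins that these cells carry form the barrier.

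Between 6 h and 24 h of treatment the transcripts with a symbol that fell furthest included chaperones, antioxidant enzymes, a cystine transporter and a proteasome partner, and those that rose furthest included the junction genes TJP3 and CLDN3 and the YAP target ANKRD1. Both rankings took only genes that passed the test and whose groups did not overlap. The separation of the groups in these genes was therefore a condition of naming them. At an adjusted p under 0.05 (limma on log2(TPM + 1), Benjamini-Hochberg over all tested genes), 8929 of 11886 genes, 75.1%, differed, 5568 higher at 24 h (46.8%) and 3361 lower (28.3%). Of the higher genes 1420, and of the lower genes 512, moved by 1 log2 unit or more, and 17 and 16 moved by 3 units or more. The labels do not say that the 3 libraries of a group came from separate cultures, so the p-values measure only the spread between these libraries, which may be technical. The median log2 change of all tested genes was 0.16 with TPM as deposited, 0.04 after rescaling by the median of ratios, and -0.002 after quantile normalization. Higher genes made up 62.4% of the calls as deposited, 52.9% after the first rescaling (4768 higher, 40.1% of genes, and 4245 lower, 35.7%) and 49.0% after the second (4398 higher, 37%, and 4574 lower, 38.5%). Changes of gene groups are therefore given beside this shift.

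The libraries carried the epithelial identity of the label at both times. Of 9 epithelial markers matched, 8 were tested and 7 rose, and their summed level was 4883 to 5075 TPM at 6 h and 8224 to 8471 TPM at 24 h. Untreated cells held 7464 to 7687 TPM at 6 h and 7996 to 8384 TPM at 24 h. EPCAM, an epithelial adhesion molecule, stood at 187, 189 and 197 TPM at 6 h and at 441, 480 and 511 TPM at 24 h. Of 8 fibroblast markers 7 were under 1 TPM, and the list summed to 3.28 to 6.89 TPM in treated cells. Of 8 immune markers 5 were under 1 TPM, with PTPRC listed at 0 in all 6 treated libraries, and the list summed to 57.6 to 59.5 TPM at 6 h and 34.64 to 42.03 TPM at 24 h, most of it LYZ, which the secretory list also holds. The secretory list summed to 56.3 to 59.9 and 34.7 to 39.1 TPM, with TFF3 and SPINK4 at 0, and its member CHGB was at 6.85 to 9.39 TPM in treated and 0.160 to 0.570 TPM in untreated cells. Endothelial markers summed to 20.3 to 25.1 and 11.1 to 17.2 TPM, most of it PECAM1, with 4 of 5 under 1 TPM. The enterocyte list summed to 38.7 to 41.0 and 38.7 to 39.4 TPM, most of it APOA1 and SLC5A1, with FABP2 at 0. In untreated cells the enterocyte list summed to 29.3 to 34.3 and 27.3 to 31.3 TPM. Its members did not move together. VIL1 rose by 1.44, SLC5A1 fell by 0.36, and APOA1 and APOA4 did not pass the test. APOA4 was at 2.49 to 3.82 TPM in treated and 0.06 to 0.49 TPM in untreated cells. The part of these lists in the results was not tested. SOX9, a transcription factor of crypt progenitors and the single marker of 5 for stem cells that passed the filter, rose by 1.76 log2 units, whereas LGR5 and OLFM4 were under 1 TPM. In bulk RNA, fewer cells of a type and less RNA per cell cannot be told apart.

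Chaperones fell most. Of 28 members of a list of heat shock and protein folding genes, 26 fell, none rose and 2 did not pass the test, with a median log2 change of -1.79 against 0.16 for all genes. In untreated cells 16 fell and 4 rose (median -0.30). The list took 3.41% ± 0.309 (SD, n = 3) of all TPM at 6 h and 1.01% ± 0.0836 at 24 h, against 1.08% and 0.751% in untreated cells at the same times. The exact two-sided permutation p of this share was 0.1, the smallest that 3 libraries against 3 can give, and 0.129 after adjustment over 9 such measures. HSPH1 (ENSSSCG00000009334), a nucleotide exchange factor for HSP70, was at 1160, 1464 and 1061 TPM at 6 h and at 75.8, 76.7 and 78.6 TPM at 24 h. All 3 libraries at 24 h lay far under the lowest at 6 h, and above the 44.8 to 48.4 TPM of untreated cells at 24 h, by 1.63 times. Its log2 change was -3.97 (SE 0.09, limma adjusted p 1.2e-10).

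The inducible HSP70 gene HSP70.2 (ENSSSCG00000029160) was at 9956, 10806 and 9081 TPM at 6 h and at 1290, 1010 and 1007 TPM at 24 h. All 6 h values lay far above the 24 h values, and the change was -3.18 (SE 0.09). Its mean at 24 h was still 3.16 times that of untreated cells. HSPA1L, a close HSP70 paralog with which reads may be shared, fell by 3.19, so the 2 values are not independent. DNAJB1, the HSP40 partner of HSP70, fell by 3.69, BAG3, an HSP70 cochaperone that also serves selective autophagy, fell by 3.51, and HSP90AA1, the inducible cytosolic HSP90, fell by 3.09 log2 units. For BAG3 the 6 h libraries held 878, 993 and 776 TPM and the 24 h libraries 79.5, 73.7 and 75.1 TPM. The 2 list members that did not pass the test were the small heat shock protein HSPB1 (-0.07) and HSF1 itself (0.19). HSPB1 stayed high, at 3807, 3710 and 4065 TPM at 6 h and 2913, 3892 and 4381 TPM at 24 h. Its groups overlapped, and its 24 h mean was 2.25 times that of untreated cells. HSF1 passed the threshold when the untreated 24 h replicate 1 (adjusted p 0.023) or the treated 24 h replicate 1 (0.045) was left out.

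**Figure D1:**
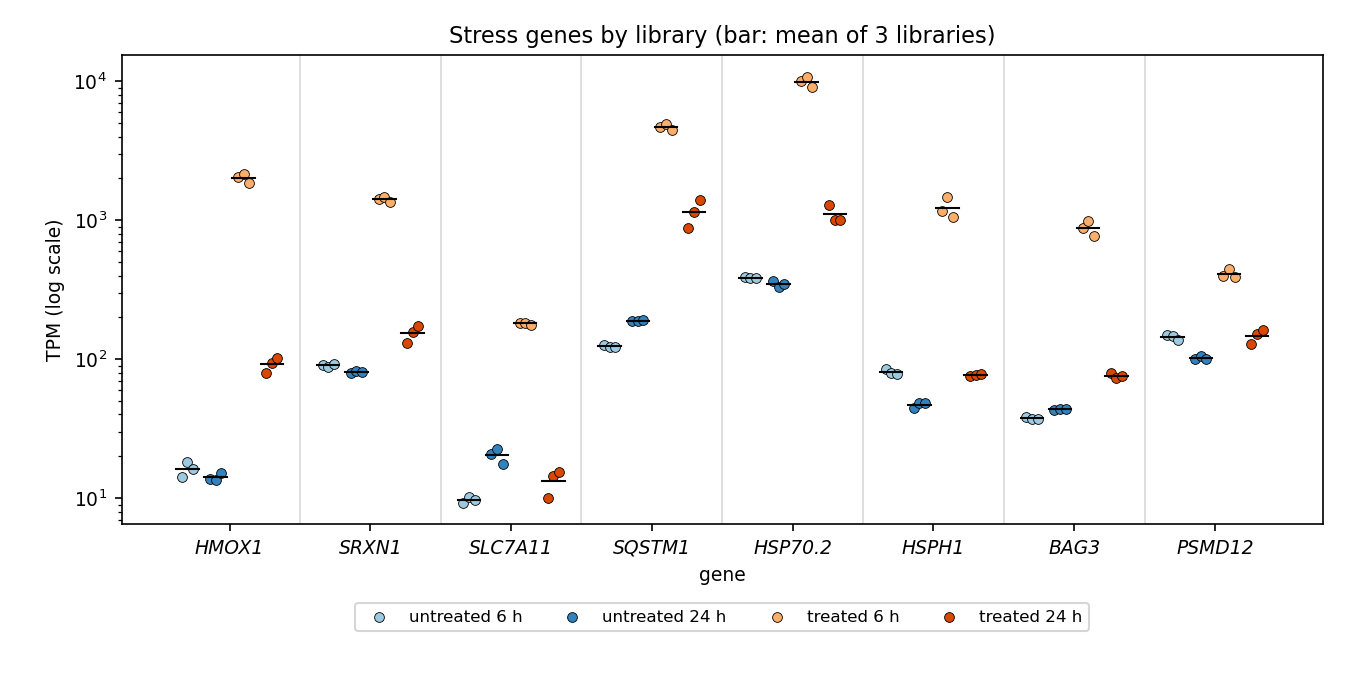
TPM on a log axis of 8 stress genes in each library, 3 points per group, with bars at the group means. Treated libraries at 6 h lie highest for all 8 genes, and the 24 h treated libraries of HMOX1, at 79.6 to 102 TPM, lie between them and the untreated ones.

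The antioxidant genes of the NRF2 response fell less uniformly. Of 31 members tested, 24 fell, 5 rose and 2 did not pass the test, and the median change was -0.90. In untreated cells 15 fell and 7 rose (median -0.18). Haem oxygenase HMOX1 (ENSSSCG00000039745), which degrades haem, had the largest fall of any gene with a symbol that met the naming rule. It was at 2055, 2163 and 1854 TPM at 6 h and at 79.6, 93.6 and 102 TPM at 24 h. The groups were separated by more than an order of magnitude, with a change of -4.45 (SE 0.10, adjusted p 1.2e-10), and the 24 h mean was 6.49 times that of untreated cells. Sulfiredoxin SRXN1, which restores oxidized peroxiredoxins, was at 1421, 1470 and 1350 TPM at 6 h and at 131, 158 and 173 TPM at 24 h, a change of -3.20 (SE 0.08). OSGIN1, an oxidative stress-induced growth inhibitor, fell by 3.16, the quinone reductase NQO1 by 2.58, the thioredoxin reductase TXNRD1 by 2.30 and the glutathione synthesis genes GCLC and GCLM by 2.62 and 2.48.

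The 5 members that rose were the glutathione transferase MGST1 (1.25), the transporter ABCC3 (0.66), the glutathione peroxidase GPX4 (0.39), the transaldolase TALDO1 (0.32) and the aldose reductase AKR1B1 (0.24). The rise of AKR1B1 did not pass the test after median-of-ratios rescaling (0.11, adjusted p 0.057). The 2 members that did not pass stayed far above untreated cells at both times. Ferritin light chain FTL, which stores iron, was at 5130, 5280 and 4926 TPM at 6 h and 4726, 5376 and 5739 TPM at 24 h, with overlapping groups. Its mean was 3.44 times the untreated level at 6 h and 3.72 times at 24 h. The epoxide hydrolase EPHX1 was 5.85 times the untreated level at 6 h and 3.94 times at 24 h. FTL passed the threshold as a rise without 24 h replicate 1 (0.12, adjusted p 0.044) and after quantile normalization (0.18).

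The 24 h libraries differed from each other in these genes. Replicate 1 was lowest of the 3 for 25 of the 31 NRF2 list members, 16 of the 28 heat shock members and all 30 proteasome members tested, and replicate 3 was highest for 24, 18 and 29 of them. This order was not counted over all tested genes, so it is not shown to be particular to these lists. The median-of-ratios factors of replicates 1, 2 and 3 were 0.995, 1.047 and 1.050, so the median gene ratio was lowest in replicate 1 too. For SQSTM1, the autophagy receptor p62 and an NRF2 target, the 24 h values were 874, 1150 and 1397 TPM, against 4720, 4936 and 4434 TPM at 6 h. The order of replicates did not bring the groups into overlap, and SQSTM1 fell by 2.07 (SE 0.12). In untreated cells SQSTM1 rose by 0.60.

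The cystine transporter SLC7A11 (ENSSSCG00000022649), which feeds glutathione synthesis and is a target of both NRF2 and ATF4, was at 182, 183 and 177 TPM at 6 h and at 9.95, 14.3 and 15.4 TPM at 24 h. This fall of 3.70 (SE 0.13) took it under the 24 h untreated cells, at 17.7 to 22.7 TPM. In untreated cells it rose by 0.99 over the same time, and the difference between the 2 changes was -4.69 (SE 0.19, limma interaction adjusted p 2.1e-08). Its partner chain SLC3A2 fell by 1.74 in treated cells and rose by 0.96 in untreated cells.

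Ubiquitin and proteasome genes fell with the chaperones. UBB, a polyubiquitin gene, took 1.13% ± 0.126 of all TPM at 6 h and 0.165% ± 0.00544 at 24 h, and fell by 2.78. Reads of its ubiquitin repeats may be shared with other genes that carry near-identical repeats. ZFAND2A, an arsenite-inducible partner of the proteasome, went from 2187, 2349 and 2012 TPM to 103, 151 and 184 TPM. The 24 h values were spread among themselves and all lay far under the 6 h values. Of 30 proteasome genes tested, 28 fell, with a median of -0.77, and in untreated cells 26 fell, with a median of -0.29. PSMD12, a lid subunit of the regulatory particle, was at 398, 448 and 391 TPM at 6 h and at 129, 152 and 161 TPM at 24 h, a change of -1.48 (SE 0.08). The core particle subunit PSMA5 and the regulatory subunits PSMD7 and PSMD3 fell by 1.21, 1.17 and 1.03. The subunit PSMA7 rose by 0.18, a call lost after median-of-ratios rescaling (0.05), and PSMB4 did not pass the test (0.04).

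Between the group means, 15.2% of all TPM moved from genes that were lower to genes that were higher at 24 h, against 9.76% in untreated cells. The 10 genes with the largest losses held 37.1% of the loss in treated cells. Among them were UBB, HSP70.2, HSPA8, COX1, HSP90AA1, HSPA5, SQSTM1, ZFAND2A and HMOX1. TPM is a share of a fixed total, so a loss in these genes raises the TPM of all others. The gains were spread more widely, and the 10 largest held 16.6%, led by the calcium-binding protein S100A6 and the mitochondrial ATP6. The rise of S100A6, 0.23, did not pass with the median of ratios (0.10, adjusted p 0.24).

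Genes of the integrated stress and unfolded protein responses mostly fell in treated cells, while more of them rose than fell in untreated cells. Of 38 tested, 23 fell and 7 rose in treated cells (median -0.49), whereas 10 fell and 23 rose in untreated cells (median 0.48, among 34% of all genes lower and 21.9% higher there). Both counts include 11 genes that fell in treated and rose in untreated cells, and 10 fell in both. After quantile normalization 25 fell and 3 rose in treated cells. The difference of the 2 changes passed the test as negative for 31 members and as positive for 2, among 18.1% of all genes negative and 45.2% positive. The luminal chaperone HSPA5, also called BiP, was at 4700, 5444 and 4341 TPM at 6 h and at 896, 864 and 897 TPM at 24 h, a change of -2.44 (SE 0.07). Its 24 h values lay near the 758 to 811 TPM of untreated cells at 24 h. The luminal chaperones HSP90B1 and CALR fell by 1.69 and 1.26, to 0.630 and 0.758 times the untreated level at 24 h. In untreated cells HSPA5, HSP90B1 and CALR fell too, by 0.25, 0.50 and 0.53.

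Among list members that act in amino acid and folate metabolism, some of them named after their values were seen, the changes were mixed. The mitochondrial folate enzyme MTHFD2 was at 42.8, 47.3 and 42.9 TPM at 6 h and at 14.0, 13.8 and 13.9 TPM at 24 h, a fall of 1.61, and rose by 0.18 in untreated cells. The serine synthesis gene PSAT1 did not pass the test in treated cells (0.12) and rose by 2.31 in untreated cells, from 60.5 to 70.0 TPM up to 311 to 333 TPM. PSAT1 passed the threshold in treated cells without 24 h replicate 3 (0.21, adjusted p 0.015). The asparagine synthetase ASNS likewise gave 0.04 in treated and 1.26 in untreated cells. PHGDH, which opens serine synthesis, rose in both, by 1.29 and 2.50. The glutathione-degrading enzyme CHAC1 and the transcription factors ATF3 and DDIT3 fell by 0.27, 0.55 and 0.56 in treated cells and rose by 1.77, 1.07 and 0.84 in untreated cells.

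**Figure D2:**
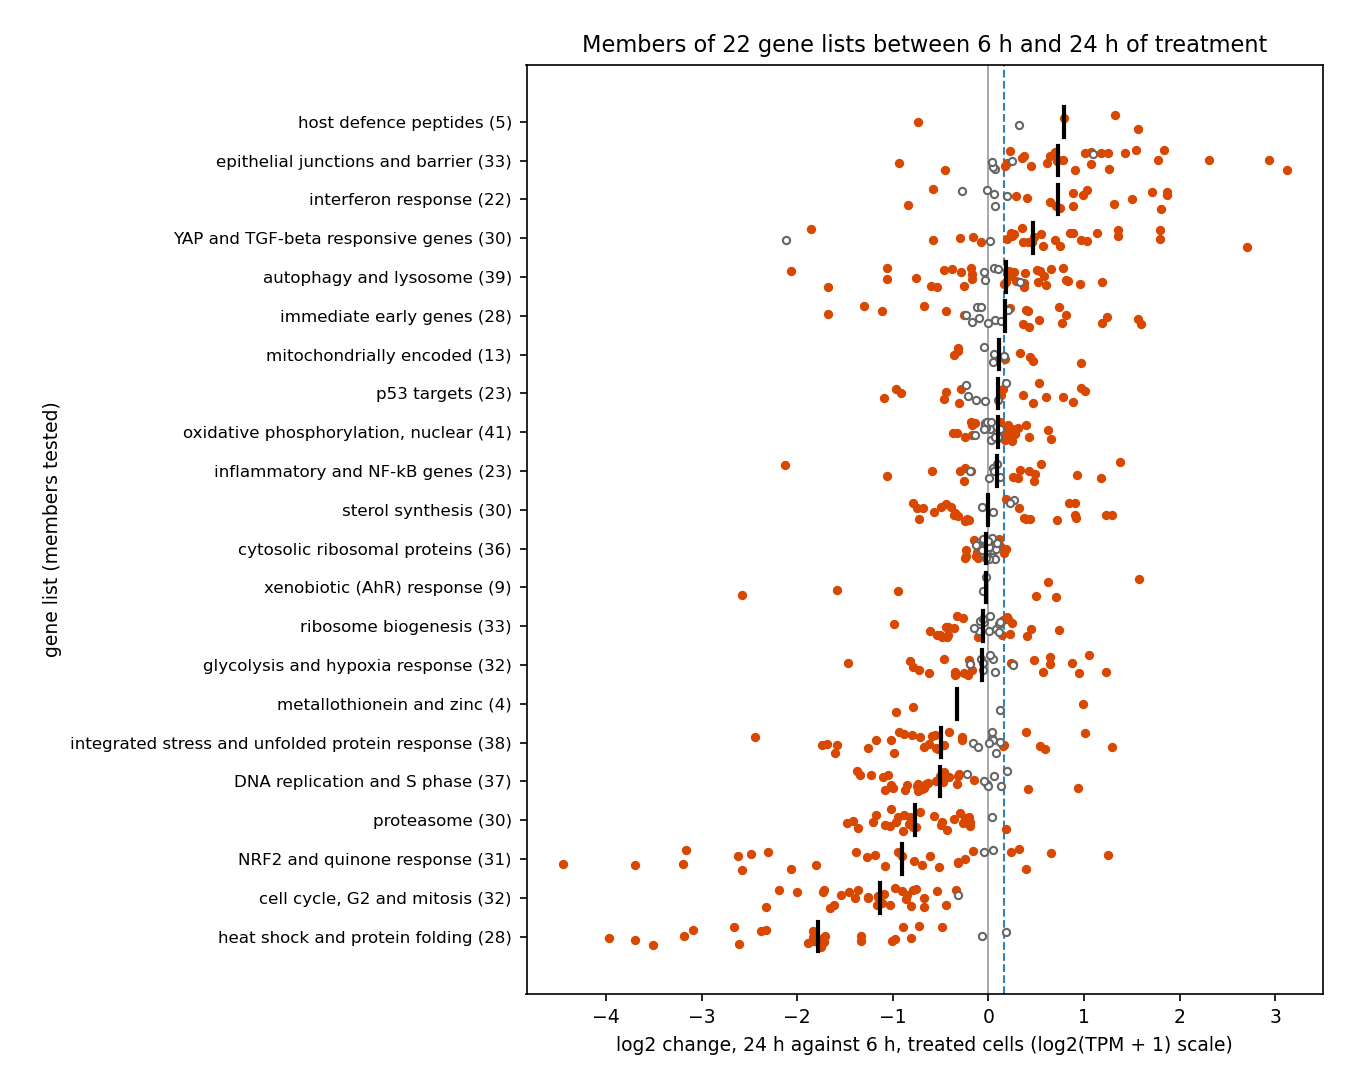
Log2 change between 6 h and 24 h of treatment for each tested member of 22 gene lists, filled where the limma adjusted p was under 0.05. Black bars mark list medians, from -1.79 for heat shock to 0.79 for the 5 host defence genes, and the dashed line marks the median of all tested genes, 0.16.

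Most junction genes rose. Of 33 tested genes of epithelial junctions and barrier, 26 rose, 2 fell and 5 did not pass, with a median of 0.73 against 0.16 for all genes. In untreated cells 22 rose and 2 fell (median 0.31), and 18 rose in both. The treated median was 0.61 after median-of-ratios rescaling and 0.67 after quantile normalization, against 0.41 and 0.39 in untreated cells. Under the median of ratios 24 members rose and 3 fell in treated cells, and 23 and 2 in untreated cells. The interaction was positive for 19 members and negative for 4, where 45.2% of tested genes were positive and 18.1% negative. With libraries so rescaled the list gave 15 and 6, beside 31.8% and 29.3% of tested genes. The tight junction scaffold TJP3 (ENSSSCG00000013491), also known as ZO-3, was at 7.89, 6.42 and 9.81 TPM at 6 h and at 78.8, 77.4 and 73.7 TPM at 24 h. The groups lay far apart, with a rise of 3.12 (SE 0.11, adjusted p 1.1e-09), and the 24 h values came near the 80.4 to 87.0 TPM of untreated cells at 24 h. Untreated cells rose as well, by 1.03, and the 2 changes differed by 2.09 (adjusted p 7.4e-07).

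Claudins are the membrane proteins that seal tight junctions. CLDN6 was at 62.5, 50.7 and 70.5 TPM at 6 h and at 327, 299 and 290.5 TPM at 24 h, a rise of 2.31, while it fell by 0.52 in untreated cells. CLDN3 was at 0.470, 1.85 and 4.14 TPM at 6 h and at 17.9, 20.4 and 22.4 TPM at 24 h. Its 6 h values were widely spread but all under the 24 h values, and it rose by 2.93 (SE 0.37). Its change was not shown to differ from that in untreated cells (1.02, interaction adjusted p 0.11), although it did so when 6 h replicate 3 was left out (1.47, 0.0098). Occludin OCLN rose by 1.26 against 0.91 in untreated cells. The membrane mucin MUC13 rose by 1.83 and, in untreated cells, by 1.70 (interaction adjusted p 0.40), the claudin CLDN1 by 1.25 and the desmosomal genes DSG2 and PKP2 by 1.42 and 1.54. The polarity gene PARD6B was among the members that fell (-0.93). Of the claudins among the epithelial markers, CLDN7 rose by 0.78, but CLDN4 did not pass the test (0.07, limma adjusted p 0.13). CLDN4 was at 1251 to 1380 TPM at 6 h, already 2.01 times the untreated level. In untreated cells it rose by 0.79, and its interaction was -0.72.

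Of the keratins, the intermediate filaments of simple epithelia, 3 were examined after their values were seen. KRT7 was at 655, 633 and 694 TPM at 6 h and at 1990, 2014 and 2073 TPM at 24 h, a rise of 1.61 (SE 0.05). It gave 1796 to 2069 TPM in the 6 untreated libraries, where no change passed the test. KRT18 and KRT8 rose by 0.88 and 0.69, and the actin gene ACTB by 1.29, from 1234 to 1514 TPM up to 3429 to 3470 TPM.

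Genes known to respond to YAP, a transcriptional coactivator controlled by cell shape and contact, or to TGF-beta rose in 23 of 30 tested members and fell in 5, with a median of 0.46. Of all genes 46.8% rose and 28.3% fell, with a median of 0.16. After median-of-ratios rescaling 18 members rose and 5 fell, and after quantile normalization 19 and 5. In untreated cells 13 rose and 8 fell (median 0.10). The interaction was positive for 21 members and negative for 3, where 45.2% of tested genes were positive and 18.1% negative. Under the median of ratios the list gave 14 and 7, beside 31.8% and 29.3% of tested genes. ANKRD1 (ENSSSCG00000010461), a widely used YAP target, was at 154, 141 and 178 TPM at 6 h and at 1020, 1055 and 1014 TPM at 24 h. The groups lay far apart, and the change was 2.70 (SE 0.07, adjusted p 1.7e-10). In untreated cells ANKRD1 held 859 to 882 TPM at 6 h and 957 to 1045 TPM at 24 h. The matrix protein THBS1, the receptor TGFBR2 and the ligand TGFB1 rose by 1.79, 1.79 and 1.14, the signal transducer SMAD3 by 1.35 and the integrin ITGB6 by 1.36. The transcriptional repressor SNAI2 fell by 1.86. Members that fell also included the matrix genes FN1 and TGFBI, by 0.30 and 0.58, the protease inhibitor SERPINE2, by 0.16, and the integrin ITGB1, by 0.08. The call of ITGB1 (adjusted p 0.0498) was lost without any 1 of 10 of the 12 libraries (adjusted p 0.053 to 0.17), and its value was 0.02 after quantile normalization.

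**Figure D3:**
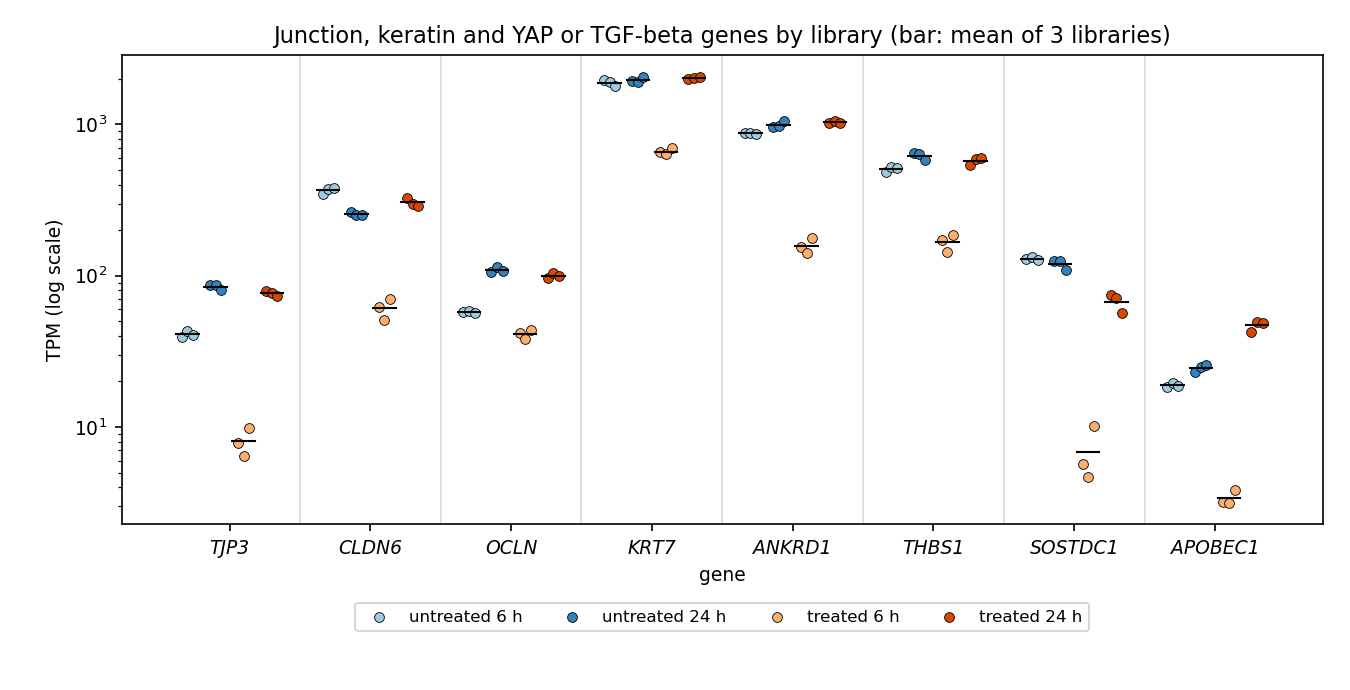
TPM on a log axis of 8 genes that rose between 6 h and 24 h of treatment, 3 libraries per group, with bars at the group means. For each gene the 6 h treated libraries are the lowest, and KRT7 at 24 h, 1990 to 2073 TPM, reaches the untreated range.

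Beyond the lists, the largest rises by the naming rule also included APOBEC1, SOSTDC1, GASK1B, BCAS1, SCRN1, TMEM230 and CEP112. The cytidine deaminase APOBEC1, which edits apolipoprotein B mRNA in the intestine, was at 3.19, 3.14 and 3.81 TPM at 6 h and at 42.7, 49.3 and 48.7 TPM at 24 h. This rise of 3.45 (SE 0.07) carried it above all untreated libraries, which held 18.5 to 25.7 TPM. SOSTDC1, a secreted inhibitor of BMP and Wnt signals, rose by 3.18, from 4.68 to 10.2 TPM up to 57.0 to 74.1 TPM, and stayed under the 108 to 133 TPM of untreated cells. The Golgi-associated kinase GASK1B rose by 2.82, BCAS1 by 2.79, SCRN1 by 2.72 and TMEM230 by 3.04. CEP112, a centrosomal protein, was at 5.14, 0.110 and 3.80 TPM at 6 h and at 27.3, 66.4 and 27.9 TPM at 24 h. Its values were widely spread in untreated cells too, from 0.270 to 18.6 TPM, and its rise of 3.57 (SE 0.90) was not shown to differ from theirs (interaction adjusted p 0.091), except without untreated 6 h replicate 2 (0.016).

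Mitotic genes fell in treated and in untreated cells, and most replication genes fell less in treated than in untreated cells. Of 32 genes of G2 and mitosis tested, 31 fell in treated cells, with a median of -1.13, and all 32 fell in untreated cells, with a median of -0.97. The 2 changes differed for 14 of them, 11 more negative and 3 less negative in treated cells, or 16 and 1 after median-of-ratios rescaling. Of all genes 18.1% were more negative and 45.2% more positive in treated cells, or 29.3% and 31.8% after that rescaling. The cyclin-dependent kinase subunit CKS2 was at 442, 486 and 441 TPM at 6 h and at 108, 92.9 and 97.6 TPM at 24 h, a fall of 2.19 against 0.96 in untreated cells. DLGAP5, a spindle protein, fell by 2.33, the checkpoint kinase BUB1 by 2.00 and the spindle motor KIF11 by 1.72. The mitotic kinase CDK1 fell by 1.26 in treated and by 1.26 in untreated cells, with an interaction of 0.01 (SE 0.23). All 32 genes were lower in treated than in untreated cells at 24 h, among 17.4% of all genes lower and 33% higher in that comparison, which shares the 24 h treated libraries.

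Replication and S phase genes gave a median of -0.51 in treated cells, with 28 of 37 fallen and 2 risen. In untreated cells 36 of the 37 fell, with a median of -1.22. The interaction was positive for 28 members and negative for 2, and for 23 and 3 after median-of-ratios rescaling. The replicative helicase subunit MCM7 fell by 0.87 in treated cells, from 48.8 to 52.9 TPM down to 26.9 to 28.3 TPM. In untreated cells it started higher, at 129.5 to 130.5 TPM, and fell by 1.48. The helicase subunit MCM4 was at 16.1, 14.4 and 17.9 TPM at 6 h and 17.4, 17.7 and 13.1 TPM at 24 h, with no change that passed the test, while it fell by 1.79 in untreated cells from 107 to 112 TPM. The 2 genes that rose were the initiation factor MCM10 (0.94) and the thymidylate synthase TYMS (0.41).

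**Figure D4:**
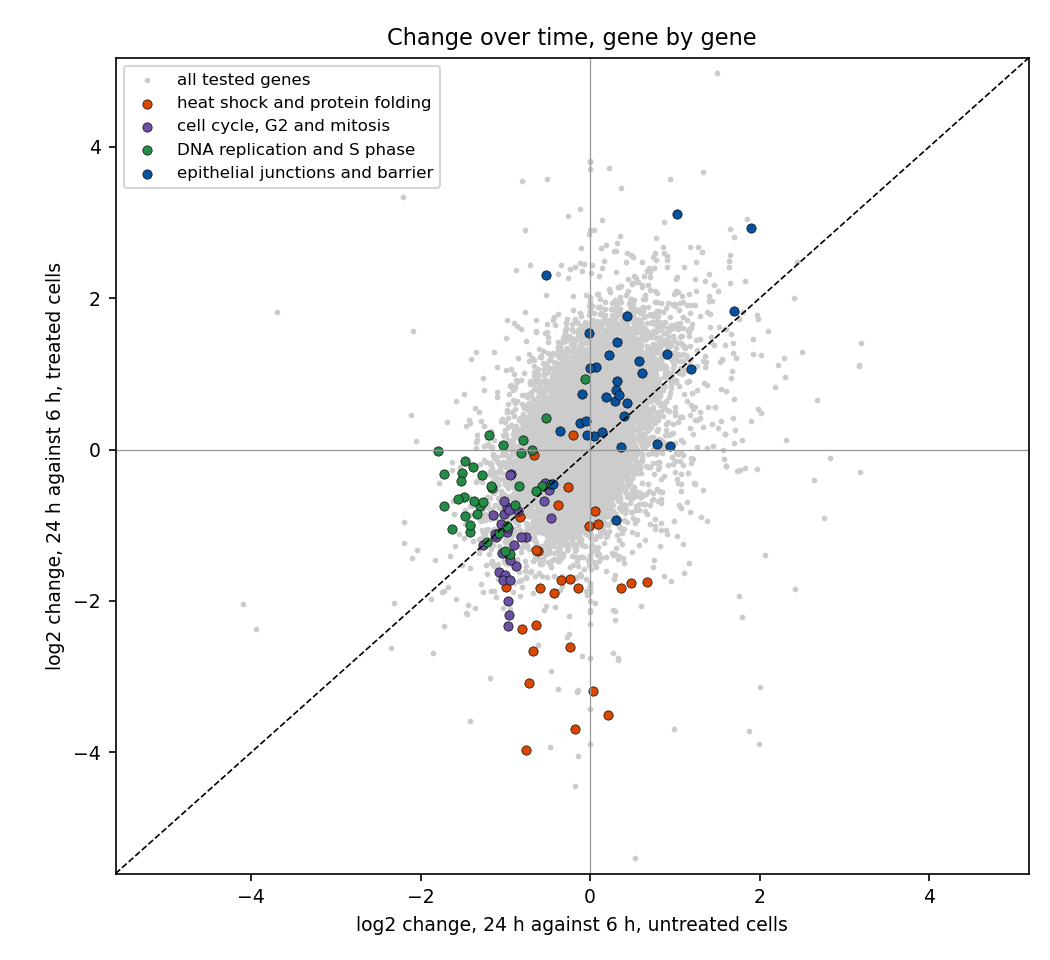
Log2 change from 6 h to 24 h in untreated cells (horizontal) and treated cells (vertical) for all 11886 tested genes, with members of 4 lists coloured and the line of equal change dashed. Most heat shock genes lie under the line and most replication genes above it.

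Lipid and ribosome biogenesis genes also fell in untreated cells and gave mixed directions in treated ones. Of 30 sterol and fatty acid synthesis genes, 12 rose and 14 fell in treated cells (median -0.01), and none rose and 27 fell in untreated cells (median -0.61). The lipogenic transcription factor SREBF1 was at 53.7, 44.8 and 53.6 TPM at 6 h and at 126, 125 and 124 TPM at 24 h, a rise of 1.29. The desaturase SCD rose by 1.23 and the fatty acid synthase FASN by 0.90, and both fell in untreated cells, by 0.30 and 0.56. NSDHL, an enzyme of cholesterol synthesis, fell by 0.73. Of 33 ribosome biogenesis genes, 9 rose and 13 fell (median -0.06), against 0 and 30 in untreated cells (median -0.71). After median-of-ratios rescaling 3 rose and 18 fell, and after quantile normalization 4 and 17. The nucleolar protein PES1 fell by 0.99 and NOP56 by 0.44, and nucleolin NCL gave 0.20 in treated and -1.03 in untreated cells. The rise of NCL was lost after median-of-ratios rescaling (0.07, adjusted p 0.16).

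Energy and translation genes on these lists moved by under 1 log2 unit, and their counts in each direction turned with the scaling. Of 41 nuclear genes of oxidative phosphorylation, 19 rose and 7 fell as deposited, but 6 rose and 10 fell with libraries rescaled by the median of ratios, and 16 rose and 8 fell after quantile normalization. In untreated cells 0 rose and 27 fell as deposited, among 21.9% of all genes higher and 34% lower there. The interaction was positive for 29 and negative for 1, or for 9 and 2 with the median of ratios. Of all genes the interaction was positive for 45.2% and negative for 18.1%, or for 31.8% and 29.3% with the median of ratios. NDUFB10, a subunit of complex I, rose by 0.65, from 103 to 108 TPM up to 162 to 168 TPM, and the ATP synthase subunit ATP5PB rose by 0.42. NDUFA9 and UQCRC2, subunits of complexes I and III, fell by 0.33 and 0.37. Of 36 cytosolic ribosomal protein genes, 4 rose and 9 fell as deposited, 0 and 23 with the median of ratios, and 13 and 4 after quantile normalization. In untreated cells 17 rose and 0 fell as deposited. The interaction was positive for 1 and negative for 17, or for 0 and 31 with the median of ratios and 6 and 8 after quantile normalization. RPL3, RPSA, RPS2 and RPLP0 fell by 0.24, 0.24, 0.24 and 0.15 as deposited, but after quantile normalization RPLP0 gave 0.06 and RPS2 -0.10, neither past the threshold. Reads of ribosomal protein genes may be shared with processed pseudogenes. The 13 mitochondrially encoded genes held 10.7% ± 0.172 of all TPM at 6 h and 11.0% ± 0.555 at 24 h (exact permutation p 0.6). Of these, 5 rose and 3 fell, among them ATP6 (0.46), CYTB (0.44) and COX2 (0.33), which rose, and COX1 (-0.32), although COX2 did not pass after quantile normalization (0.10). Changes of the 13 ranged from -0.36 to 0.97. Only 3 rose when 6 h replicate 2 was left out, and 4 rose and 4 fell after median-of-ratios rescaling.

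Most interferon-stimulated genes tested rose. Of 22 tested, 15 rose and 2 fell, with a median of 0.73 (0.64 after median-of-ratios rescaling and 0.42, with 12 higher and 4 lower, after quantile normalization). Of all genes 46.8% rose and 28.3% fell, with a median of 0.16. In untreated cells 7 rose and 5 fell (median 0.17). The interaction was positive for 13 members and negative for 2, among 45.2% of all genes positive and 18.1% negative. After median-of-ratios rescaling it was so for 8 and 3, among 31.8% of all genes positive and 29.3% negative. The exonuclease ISG20 was at 6.25, 5.32 and 5.78 TPM at 6 h and at 22.4, 25.8 and 20.3 TPM at 24 h, a rise of 1.81, against no call in untreated cells at 9.83 to 14.0 TPM. IFI35, the RNA sensor OAS2 and the transcription factor IRF7 rose by 1.31, 0.99 and 0.89. The RNA-binding IFIT1 was at 3.25, 0.680 and 1.64 TPM at 6 h and at 12.9, 3.62 and 13.1 TPM at 24 h. Replicate 2 was lowest at both times, the groups did not overlap and the rise was 1.86 (SE 0.44). This rise was not shown to differ from the change in untreated cells (1.33, limma interaction adjusted p 0.080). The ubiquitin-like ISG15, at 207 to 223 TPM at 6 h, and the RNA sensor IFIH1 fell by 0.58 and 0.84.

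Inflammatory and immediate early genes gave counts in treated cells near the 46.8% higher and 28.3% lower of all genes. The neutrophil chemokine CXCL8 was at 219, 220 and 224 TPM at 6 h and at 48.4, 49.1 and 52.1 TPM at 24 h, a fall of 2.13 (SE 0.05), and rose by 0.30 in untreated cells. CXCL2, another neutrophil chemokine, fell by 1.06, while the cytokine IL18 rose by 1.18 and the adaptor MYD88 by 0.55. Of 23 members tested on the inflammatory list, 10 rose and 7 fell, turning to 6 and 9 after quantile normalization. Of 28 immediate early genes, 13 rose and 6 fell, or 12 and 10 after quantile normalization. In untreated cells 20 of them rose and 3 fell, among 21.9% of all genes higher and 34% lower there. FOSL1, a subunit of AP-1, fell by 1.68 and the mRNA-destabilizing ZFP36 by 1.30, whereas KLF10, a TGF-beta-inducible factor, rose by 1.56 and JUNB, another AP-1 subunit, by 0.81. In untreated cells KLF10 and JUNB also rose, by 0.67 and 0.63.

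Other lists held few members or gave both directions, beside 46.8% of all tested genes higher and 28.3% lower. Of 42 host defence genes listed, 5 were tested, and the antiprotease SLPI (1.56), WFDC2 (1.33) and S100A12 (0.79) rose while lysozyme LYZ fell by 0.74. WFDC2 was at 754, 688 and 742 TPM at 6 h and at 1944, 1831 and 1707 TPM at 24 h, with no overlap. In untreated cells SLPI, S100A12 and WFDC2 rose too, by 2.10, 1.26 and 0.81, and LYZ fell by 0.56. Of 23 p53 targets, 10 rose and 7 fell, with the kinase PLK2 (0.89) and the repair gene XPC (0.97) higher and the polymerase POLH (-1.09) and TP53I3 (-0.92) lower. After median-of-ratios rescaling 8 rose and 10 fell, and after quantile normalization 9 and 11. Of 32 glycolysis and hypoxia genes, 10 rose and 14 fell. The peptide hormone ADM went from 272, 291 and 255 TPM to 108, 93.0 and 93.8 TPM, a fall of 1.46, and stayed 3.20 times the untreated level. VEGFA fell by 0.82, and the oxygen sensor EGLN1 and the repressor BHLHE40 rose by 1.05 and 1.23.

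Of 39 autophagy and lysosome genes, 20 rose and 14 fell, near the 46.8% higher and 28.3% lower of all genes. After median-of-ratios rescaling 16 rose and 15 fell, and after quantile normalization 18 and 14. In untreated cells 21 rose and 4 fell, among 21.9% of all genes higher and 34% lower there. The autophagosome protein GABARAP rose by 1.18 and its relative MAP1LC3A by 0.78, and the lysosomal galactosidase GLA fell by 1.06 beside the fall of SQSTM1. Of 9 genes of the xenobiotic response, 4 rose and 3 fell, or 4 and 5 after either rescaling. The cytochromes P450 CYP1A1 and CYP2S1 rose by 0.71 and 1.58, and NQO1, the amino acid transporter SLC7A5 (-1.58) and the P450 reductase POR (-0.95) fell. Of 4 metallothionein and zinc genes, the importer SLC39A10 rose by 0.99, the exporter SLC30A1 and the zinc sensor MTF1 fell by 0.79 and 0.97, and SLC39A4 did not pass (0.12).

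The treated and untreated changes over time were compared directly, as these groups share no library. In untreated cells 6646 genes (55.9%) changed, 2605 higher and 4041 lower. Their changes had an SD of 0.46 log2 units across genes, against 0.74 in treated cells. The change itself differed between treated and untreated cells for 7520 genes (63.3%), 5368 more positive and 2152 more negative with treatment. With libraries rescaled by the median of ratios, 3783 (31.8%) were more positive and 3487 (29.3%) more negative. Across the 11886 genes, which are not independent replicates, the 2 changes had a Pearson's r of 0.419 and a Spearman's rho of 0.437, given as a description. Called changes went the same way in 1933 genes that rose and 1949 that fell in both. In 1136 genes treated cells rose and untreated cells fell, and in 312 the reverse held. With median-of-ratios rescaling, under which 30% of genes rose and 26% fell in untreated cells, these were 551 and 701. Pairs of treated libraries across time had a median absolute log2 difference of 0.439 to 0.499, against 0.259 to 0.284 in untreated cells and 0.0742 to 0.121 within the treated groups.

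**Figure D5:**
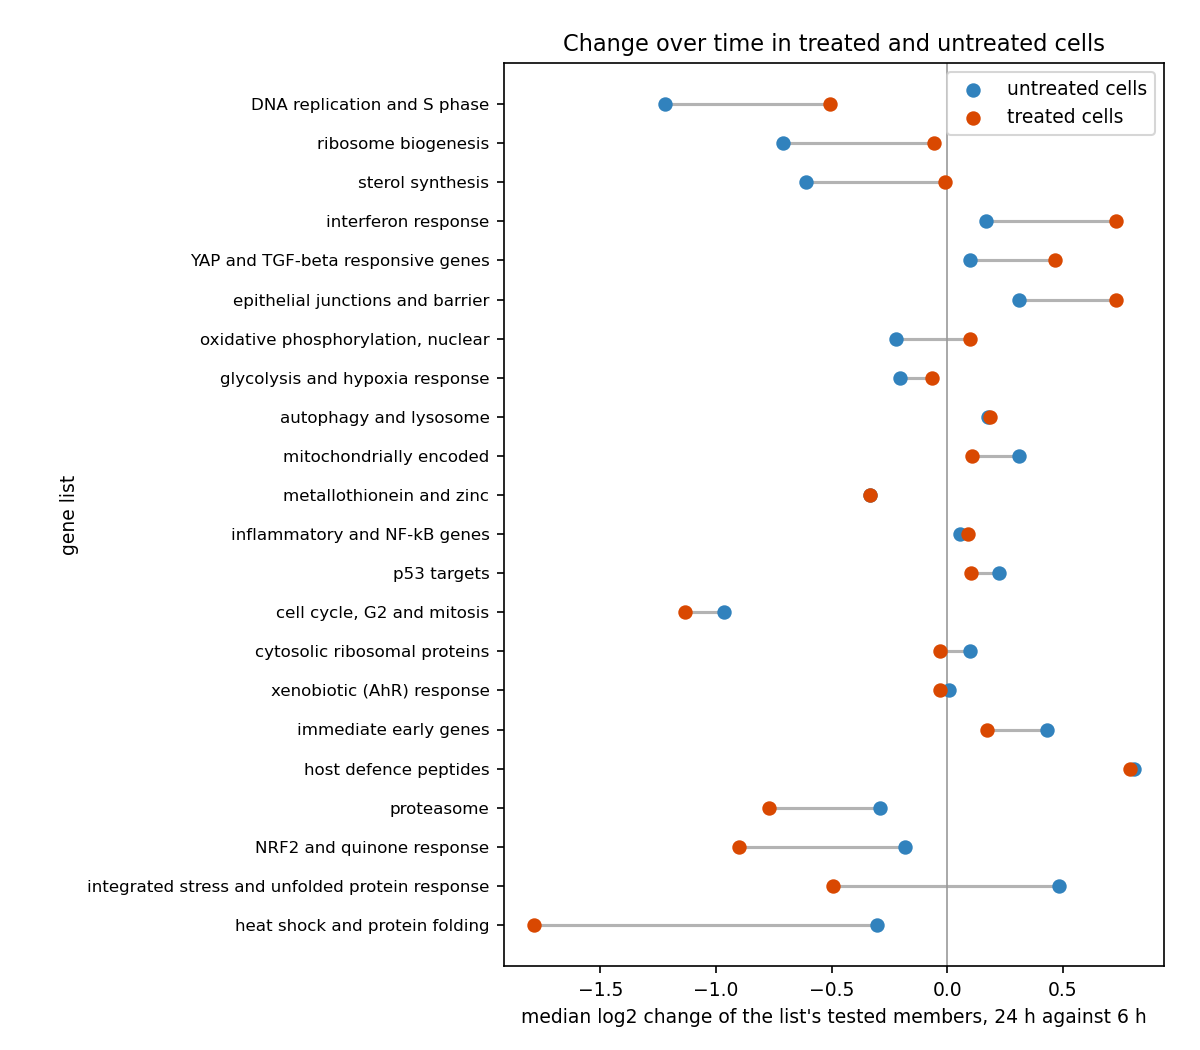
Median log2 change of the tested members of each list between 6 h and 24 h, in untreated cells (blue) and treated cells (orange), ordered by the median difference. The heat shock list is lowest in treated cells (-1.79 against -0.30), and the integrated stress list lies on opposite sides of 0.

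At 24 h the lists differed in how they stood against untreated cells of the same time. These values share the 24 h treated libraries with the changes given above and are set beside them without a test of the relation. Of the 30 proteasome genes, 29 were still higher and none lower, and of the 31 NRF2 genes 23 were higher and 5 lower. Of the 28 heat shock genes, 12 were higher and 3 lower, and 13 did not pass. Median-of-ratios rescaling gave 11 higher and 8 lower, among 25.1% of all genes higher and 24.1% lower. The junction list had 12 higher, 5 lower and 16 that did not pass, close to the 33% higher and 17.4% lower of all genes, and 8 in each direction under that rescaling. Of the 38 integrated stress genes, 5 were higher and 22 lower, and the interferon list had 17 of 22 higher and none lower.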

How the data were processed

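RNA from IPEC-J2 cells was sequenced in 4 groups of 3 libraries. The authors deposited 1 table of TPM for 32518 identifiers, and the column sums are 999999 to 1000000. Per the submitters' processing notes, fastp, HISAT and RSEM were used, with no version or role given. The genome build and annotation are not given in the sources used here, so no coordinates or sequences are printed. A gene name table matched 15029 identifiers to symbols.

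Values were analysed as log2(TPM + 1), which understates changes of low genes. Genes with a mean of at least 1 TPM over the 6 treated libraries were tested with limma 3.58.1 in R 4.3.3 (all 12 libraries in 1 fit, group means, contrasts, trended prior variance, Benjamini-Hochberg, two-sided, threshold 0.05). The interaction is the treated change minus the untreated change. Library shares were compared with exact permutation tests. Lists are described by counts and medians, with no set test.

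Named genes are the 10 largest rises and falls with a symbol, a mean of at least 5 TPM, an adjusted p under 0.05, no overlap of groups and no library at 0, and up to 4 members per list with the smallest adjusted p. Other genes were named after their values were seen, and a few that the rule would name are not reported here. The members and lists were chosen with earlier results of these data known.

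The alternatives were a pseudocount of 0.1, other filters, quantile normalization, median-of-ratios rescaling, the replicate number as a block, only the compared groups, no variance trend, a minimum change of 1 log2 unit, dropping genes at 0 in some library but 20 TPM or above elsewhere, and leaving out each library. The procedure was tested on simulated data for treated cells at 24 h against 6 h: of 200 changed among 11886 genes, 77.5% were recovered at 0.5 and 94.0% at 1.0 log2 units, with 7.19% and 1.57% of calls false. The simulated noise was independent between genes, with no shift of scale, whereas 75.1% of genes were called in the data. These rates therefore do not give the error rate of the real comparison.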

Additional observations from a re-analysis of the deposited data

Results flagged for a closer look

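The change over time differed between treated and untreated cells for 7520 genes by limma's interaction test (Benjamini-Hochberg adjusted p under 0.05). The genes given here were called in opposite directions in the treated and untreated comparisons and passed that test; each value is the treated minus the untreated log2 change.

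Among genes that fell in treated and rose in untreated cells, the stress and protein handling genes SLC7A11, BAG3, UBB, SLC3A2 and SQSTM1 gave -4.69, -3.72, -3.10, -2.70 and -2.67. CHAC1, MTHFD2, ATF3 and DDIT3, of the integrated stress list, gave -2.04, -1.79, -1.62 and -1.40. The signalling genes CXCL8, ZFP36 and VEGFA gave -2.42, -1.61 and -1.09, the RNA sensor IFIH1 gave -1.25, the polarity gene PARD6B -1.24 and the matrix gene FN1 -0.72. The ribosomal protein genes RPSA, RPL3 and RPLP0 gave -0.35, -0.34 and -0.32, of which RPLP0 turned to 0.08 after quantile normalization.

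Among genes that rose in treated and fell in untreated cells, the claudin CLDN6 gave 2.83, the actin gene ACTB 1.56 and the keratin KRT18 1.10. The zinc importer SLC39A10 gave 1.55, the lipid synthesis genes SCD and FASN 1.53 and 1.46, the oxygen sensor EGLN1 1.35 and the nucleolar NCL 1.22. TYMS, ATP5PB and PSMA7, of nucleotide synthesis, ATP synthase and the proteasome, gave 0.94, 0.59 and 0.40. The treated rises of NCL and PSMA7 did not pass the test after median-of-ratios rescaling.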

How the results depend on the processing

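The number of genes that changed in treated cells stayed within 1.5 times its value in each alternative run except a minimum change of 1 log2 unit, which left 1932 genes, with 429 in untreated cells and 1543 for the interaction. Leaving out each library gave 8518 to 8978 genes in treated cells, 5816 to 6798 in untreated cells and 7085 to 7490 for the interaction. The replicate numbers in the titles were checked for pairing: treated libraries sharing a number had deviations from their group means that correlated at 0.0607 to 0.0770 over 3 pairs, so the numbers are not taken to pair the libraries, although all 6 treated libraries correlated best with their own number. With the replicate number as a block, 8857, 6509 and 7421 genes passed, and 8763 of the treated calls were shared in direction. List counts that moved by over 1.5 times included oxidative phosphorylation, nuclear (6 higher, median of ratios), cytosolic ribosomal proteins (23 lower by median of ratios, 4 by quantile normalization), inflammatory genes (6 higher, quantile normalization), ribosome biogenesis (3 and 4 higher), integrated stress (4 and 3 higher) and xenobiotic genes (5 lower by each) by median of ratios and quantile normalization, immediate early (10 lower), p53 (11 lower) and interferon genes (4 lower) by quantile normalization, and mitochondrially encoded genes (3 to 7 higher when leaving out treated libraries). The share of TPM in the 10 most abundant genes, 15.1% at both times (24 h minus 6 h 0.0464 percentage points), gave -1.70 with 50 genes and -0.297 to 0.330 leaving out libraries. The mitochondrial share gave -0.0568 to 0.497. Interactions that turned sign were those of NDUFA9 (-0.15 by quantile normalization, -0.19 by median of ratios), ATP6 (-0.24), JUNB (-0.0478), CDH1 (-0.14) and PSMB4 (-0.22), by median of ratios, and RPS2 (0.0335) and RPLP0 (0.0822) by quantile normalization; the treated changes of RPLP0 and ITGB1 gave 0.0576 and 0.0156 there. Of the other values recomputed for 100 genes named by the rule and 52 considered beyond it, 5212 kept their direction and call, 66 lost the call and 32 gained it. The cause was not tested. TPM carries no depth, so differences of genes near 1 TPM cannot be weighed against counting error.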

Other observations

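Some of the largest changes were in identifiers without a symbol. The assembled locus MSTRG.5797 was at 4.49, 3.20 and 3.91 TPM at 6 h and at 72.5, 59.2 and 58.3 TPM at 24 h of treatment, a rise of 3.73 log2 units, and gave an interaction of 3.50. MSTRG.5788, another assembled locus, rose by 3.58 with an interaction of 4.09. ENSSSCG00000046843 was at 16.6, 20.8 and 16.1 TPM at 6 h and at 0.570, 0.920 and 0.730 TPM at 24 h, a fall of 3.43. ENSSSCG00000039758 was at 24.4, 24.7 and 25.1 TPM at 6 h and at 3.15, 2.83 and 2.68 TPM at 24 h, a fall of 2.73, and at 0.0200 to 0.220 TPM in the 6 untreated libraries. These values come from limma on the same scale as above.

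The libraries differed in breadth. Identifiers above 0 TPM numbered 19362 ± 315 (SD, n = 3) at 6 h and 19881 ± 66.8 at 24 h of treatment, against 18552 and 18707 in untreated cells (exact two-sided permutation p 0.1 for the treated times, 0.129 adjusted over 9 measures). Assembled loci held 1.81% of TPM at 6 h and 2.39% at 24 h, against 2.36% and 2.44% in untreated cells.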
